A study of Mus musculus with 56 samples.

Results

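Livers of mice fed only at night were compared between ZT4 and ZT16, where ZT is zeitgeber time in hours after lights on. Under nighttime-restricted feeding (NRF), ZT4 lies in the light, early in the daily fast, and ZT16 lies in the dark, early in the meal. The comparison held 8 of the 56 libraries of the series, 4 per time, and they were chosen from the regimen and time given in the labels. All were female C57BL/6J mice, 7 weeks old on entry and 9 weeks old at sampling, kept under 12 h of light and 12 h of dark and held on NRF for 7 days. Daytime-restricted feeding (DRF) at ZT4 and ZT16, another 8 libraries from mice of the same strain, sex and age, served for comparison, since there ZT4 falls in the meal and ZT16 in the fast. The labels do not say that each sample was a separate animal, so p-values describe a spread between samples that may be partly technical. That spread was estimated from all 56 libraries, not only from the 8 compared.

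The liver clock is a loop in which BMAL1, with CLOCK or NPAS2, switches on the Period, Cryptochrome and REV-ERB genes, whose products in turn repress the loop. Feeding sets the phase of this clock and, through insulin, sterols, bile acids and heat, also acts directly on genes of lipid, glucose and protein metabolism. Light phase, food in the gut, fasting time and clock phase all differ between ZT4 and ZT16 of night-fed mice, so their parts in any difference below cannot be told apart within NRF.

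RNA was sequenced after removal of ribosomal RNA, and gene values are given as scaled counts, which were rebuilt from the deposited values, are comparable between libraries of one gene and are not corrected for gene length. Scaled counts totalled 843757 to 1019104 per library, and the whole numbers behind them exceed the study's stated sequencing depth, for which reason they are not called reads. Replicates correlated across 13730 genes at 0.966 to 0.985 within a time and at 0.954 to 0.967 between times, and genes are not independent replicates. NRF ZT16 replicate 3 stood apart. Its mitochondrial transcripts made up 1.86% of its scaled counts, against 0.51% to 0.66% in the other ZT16 libraries and 0.25% to 0.90% at ZT4. Counts below include it unless stated, and without it 6032 genes were called in place of 6091. Longer genes were lower in some libraries: the rank correlation of exon length with the deviation of a library from the mean of the 8 was -0.265 to 0.146 at ZT4 and 0.012 to 0.20 at ZT16, and its part in the results is covered only by the fit with this trend removed. Hepatocyte markers were high throughout, with albumin, the main plasma protein made by hepatocytes, at 71459 to 125977 scaled counts in the 8 libraries. Markers of Kupffer cells, sinusoidal endothelial cells, stellate cells, bile duct cells, neutrophils and red blood cells overlapped between times in their summed levels. The 6 lymphocyte markers summed to 2.67 to 5.29 scaled counts at ZT4 and to 1.13 to 1.85 at ZT16. Of the 6, 4 were called higher at ZT4 (66.7%, against 13.8% of all genes). A limit to genes with a mean of at least 1 scaled count removes most markers this low untested, so its 0 calls are no retest. On the 8 libraries alone 1 of the markers was called. The part of these lymphocyte transcripts in the results was not tested. In bulk tissue, fewer cells of a type and less RNA per cell cannot be told apart.

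Across all genes, the early fast and the early meal differed in many genes, mostly by less than 2-fold. Testing 25143 genes by limma gave 6091 (24.2%) with an adjusted p under 0.05. Of these 3461 (13.8% of those tested) were higher at ZT4 and 2630 (10.5%) were higher at ZT16. The median absolute difference of the called genes was 0.41 on the log2(scaled count + 1) scale with a median SE of 0.10, and 216 genes (0.859%) were at least 2-fold higher at ZT4 and 207 (0.823%) at ZT16. Log2 differences below are ZT4 minus ZT16 on this scale, on which differences of low genes come out too small. The 4 libraries of each time did not overlap in 4226 genes (16.8%), and 3652 (14.5%) were called and without overlap. Genes named for the size of their difference were taken only from the latter. For them, among them Nr1d1, Npas2, Nr0b2, Mt2, Per2, Per3, Thrsp, Cyp7a1, Hsph1 and Alas1, lack of overlap is no further support. The split between directions depended on the scale: 56.8% of the calls were higher at ZT4 on scaled counts, 50.1% with median-of-ratios scaling, 50.9% with the length trend removed and 33.8% on the values as deposited. The calls of a list in 1 direction are therefore read against the 13.8% or 10.5% of all genes called in that direction, and its calls in both directions against 24.2%. Of 15052 protein-coding genes 29.9% were called, 2329 higher at ZT4 and 2179 at ZT16. Of 13752 genes with a mean of at least 1 scaled count, 4639 were called. A list near these higher shares does not stand out. SEs and p-values use the spread of all 56 libraries, while each SD is of 4 libraries. In a limma fit of the 8 libraries alone, 2185 genes were called. Of the 114 named genes that were called, 35 were not called there, among them Dbp, Pdk4, Socs2, Mat1a, Tdo2 and Cyp1a2.

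**Figure D1:**
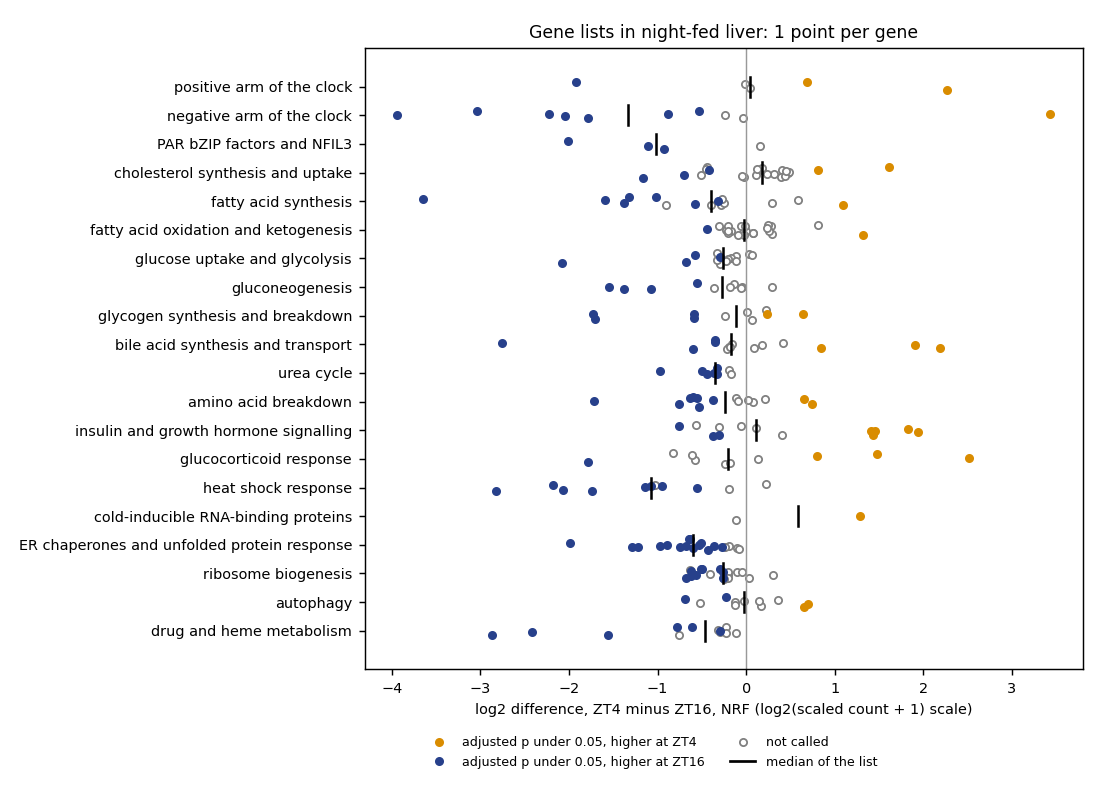
Log2 difference (ZT4 minus ZT16, night-fed liver) of every measured member of 20 gene lists, 1 point per gene, with orange (higher at ZT4) and blue (higher at ZT16) points for genes with an adjusted p under 0.05, open points for genes not called and a black bar at the median of each list. Heat shock (median -1.08), endoplasmic reticulum chaperones (-0.61), the negative arm of the clock (-1.34) and PAR bZIP factors (-1.02) lie to the left, higher at ZT16, while most fatty acid oxidation genes lie near 0.

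Clock genes differed between the times in opposite directions. In the negative arm, 7 of 10 genes were higher at ZT16 and 1 was higher at ZT4, against 24.2% called among all genes. Per2, a Period repressor of the loop, held 9.28, 5.0, 4.25 and 3.88 scaled counts at ZT4 and 108, 105, 93.3 and 79 at ZT16, with replicates 1 to 4 given in order here and below. Every ZT16 library lay far above every ZT4 library, and the log2 difference was -3.94 (SE 0.26, adjusted p = 1.45e-15). Per3, another Period gene, rose from 1.95 ± 0.49 (SD, n = 4) at ZT4 to 23.2 ± 3.45 at ZT16, a difference of -3.04 (SE 0.20, adjusted p = 1.17e-15). Per1 was low at ZT4, at 0.782, 1.01, 1.08 and 1.36, and reached 5.74, 7.51, 10.5 and 12 at ZT16, without overlap and with a difference of -2.23 (SE 0.27, adjusted p = 2.09e-08). Among the Cryptochromes, the partners of PER, Cry1 differed by -1.79 (SE 0.20, adjusted p = 2.02e-09) and Cry2 by -0.53 (SE 0.10, adjusted p = 0.000143), both higher at ZT16. The 4 libraries of each time did not overlap for either gene. Bhlhe40, which encodes the repressor DEC1, was also higher at ZT16, at 44.2 ± 10.2 (SD, n = 4) against 9.89 ± 2.01, and Ciart, a repressor of BMAL1, was at 0.0325 ± 0.015 at ZT4 and 0.909 ± 0.198 at ZT16.

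Nr1d1 ran the other way. This gene encodes REV-ERBα, the nuclear receptor that represses Arntl, and held 54.2, 54.6, 42.9 and 39.2 scaled counts at ZT4 and 3.19, 3.5, 6.49 and 1.83 at ZT16. It was first among the genes named for being higher at ZT4, 10.8-fold on the log scale used. Its difference was 3.43 (SE 0.31, adjusted p = 1.66e-11), and lack of overlap was a condition of the naming. Its paralogue Nr1d2 (REV-ERBβ) lay at 62, 83.5, 61.5 and 74.7 at ZT4 and 93.3, 86.6, 91.7 and 62.4 at ZT16, which overlapped, and did not pass (-0.24, SE 0.17, adjusted p = 0.33). In the positive arm, Npas2, a partner of BMAL1, was at 5.91, 5.7, 3.23 and 3.57 at ZT4 and at 0.112 to 0.179 at ZT16, a difference of 2.27 (SE 0.17, adjusted p = 7.31e-14). Arntl, which encodes BMAL1, was higher at ZT4 (53.9 ± 10.4 against 33 ± 6.26, SD, n = 4) with 1 ZT16 library, replicate 4 at 42.1, just above the lowest ZT4 library at 42. Its difference of 0.69 (SE 0.19, adjusted p = 0.00515) was not called on the values as deposited (adjusted p = 0.377). Clock and Rora were not called (-0.01, SE 0.15, adjusted p = 0.978 and 0.05, SE 0.07, adjusted p = 0.711).

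The clock output factors of the PAR bZIP family were higher at ZT16. Tef held 13.4, 13.4, 10.7 and 13.2 scaled counts at ZT4 and 59.3, 64.8, 46.1 and 47.4 at ZT16, and the difference was -2.01 (SE 0.18, adjusted p = 1.41e-11). Hlf followed with -1.11 (SE 0.19, adjusted p = 1.4e-05), without overlap. Dbp was low at both times, 1.52, 2.86, 0.934 and 2.36 at ZT4 and 4.42, 3.82, 7.76 and 2.56 at ZT16, with overlap between libraries and a difference of -0.92 (SE 0.21, adjusted p = 0.000937). Nfil3, which encodes the repressor that competes with these factors for the same DNA element, was not called (0.16, SE 0.16, adjusted p = 0.53).

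**Figure D2:**
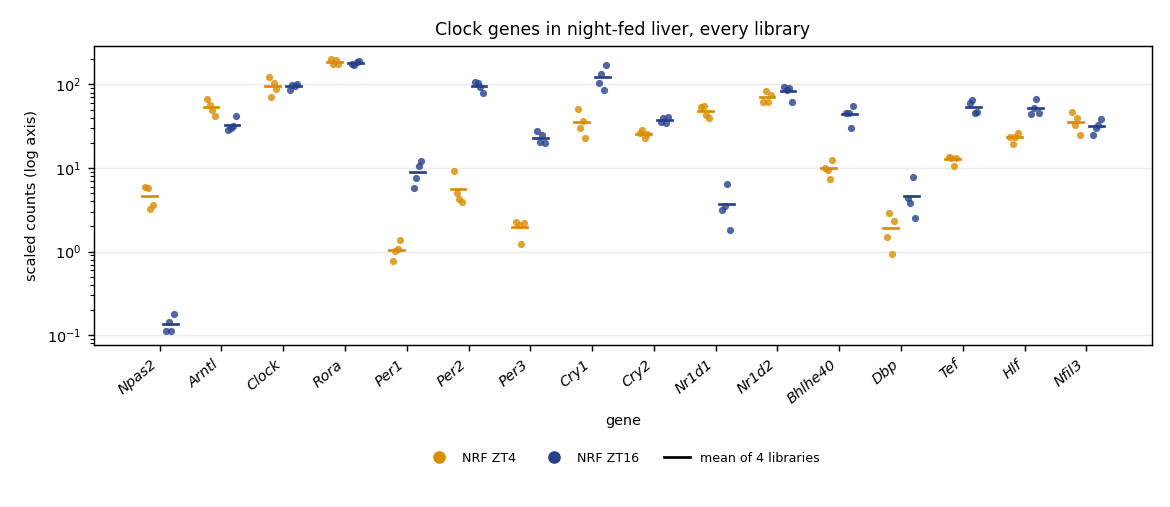
Scaled counts (log axis) of 16 clock genes in every night-fed library, with orange points for ZT4, blue points for ZT16 and a bar at the mean of 4 libraries. Per1, Per2, Per3 and Tef are higher at ZT16 and Nr1d1 and Npas2 are higher at ZT4 without overlap, while Clock, Rora, Nr1d2 and Nfil3 overlap.

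Promoter windows ran from 250 bases before to 50 after each annotated start in RefSeq (GRCm38.p6). They were searched on both strands for an E-box (CACGTG, the site of BMAL1 and its partners). A D-box (TTANNTAA, the site of PAR bZIP factors) and a ROR element (TNGGTCA, a loose form of the site of ROR and REV-ERB) were searched too. N is any base, so the ROR letters also match stretches that are not that site. Of the 14 clock genes called, 11 had a window. The E-box was found in 4 of them (Ciart, Cry1, Per1 and Tef), the D-box in 2 (Per3 and Tef) and the ROR element in 4 (Arntl, Cry2, Per3 and Tef). These 11 genes had 14 windows, of which 5 held the E-box, 2 the D-box and 5 the ROR element. Among all 32851 windows the E-box was in 7.15%, the D-box in 6.00% and the ROR element in 11.0%. The windows of Per1 (chr11:69098699-69098998, plus strand), Per3 (chr4:151044616-151044915, minus strand) and Arntl (chr7:113207261-113207560, plus strand) are printed because these genes differ in direction and show an example of each element. They read 5′ to 3′, and the element named in brackets is in capitals. A match is a description of letters and not a bound site.
Per1 (E-box): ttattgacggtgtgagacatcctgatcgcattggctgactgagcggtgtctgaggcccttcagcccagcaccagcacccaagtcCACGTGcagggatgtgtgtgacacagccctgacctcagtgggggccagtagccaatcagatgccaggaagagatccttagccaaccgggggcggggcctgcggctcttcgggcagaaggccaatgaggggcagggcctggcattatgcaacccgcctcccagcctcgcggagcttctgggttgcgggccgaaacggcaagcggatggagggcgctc
Per3 (D-box): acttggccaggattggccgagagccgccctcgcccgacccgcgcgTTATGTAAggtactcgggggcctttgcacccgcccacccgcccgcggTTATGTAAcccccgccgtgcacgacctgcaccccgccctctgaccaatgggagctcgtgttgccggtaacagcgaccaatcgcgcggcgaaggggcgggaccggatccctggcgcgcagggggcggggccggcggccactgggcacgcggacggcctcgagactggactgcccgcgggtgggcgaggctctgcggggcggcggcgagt
Arntl (ROR element): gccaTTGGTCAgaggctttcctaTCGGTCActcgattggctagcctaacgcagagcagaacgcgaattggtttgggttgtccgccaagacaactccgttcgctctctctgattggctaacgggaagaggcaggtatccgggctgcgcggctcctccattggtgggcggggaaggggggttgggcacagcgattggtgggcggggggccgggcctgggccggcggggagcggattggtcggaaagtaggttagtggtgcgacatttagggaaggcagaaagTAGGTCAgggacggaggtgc

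Genes of fatty acid synthesis were mostly higher in the early meal. Of 15 genes tested, 7 were higher at ZT16 and 1 was higher at ZT4 (53.3% called, median difference -0.40 against 0.01 over all genes). Thrsp, which encodes a nuclear regulator of lipogenesis, held 61, 71.8, 11.9 and 25.6 scaled counts at ZT4 and 376, 564, 300.0 and 595 at ZT16. The lowest ZT16 library lay above the highest ZT4 library, and the difference was -3.65 (SE 0.46, adjusted p = 4.74e-08). Srebf1, which encodes the transcription factor that drives lipogenesis in response to insulin, held 148, 189, 90.8 and 136 at ZT4 and 320.2, 392, 324 and 397 at ZT16, also without overlap (-1.38, SE 0.20, adjusted p = 9.69e-07). Fatty acid synthase, Fasn, was at 344, 293, 122 and 173 at ZT4 and 531, 613, 313 and 827 at ZT16, where ZT16 replicate 3 lay below 1 ZT4 library. Its difference of -1.32 (SE 0.38, adjusted p = 0.00752) was lost without ZT4 replicate 3 (adjusted p = 0.0519), and the list then had 4 genes higher at ZT16 in place of 7. Elovl6, an elongase of saturated fatty acids (-1.59, SE 0.32, adjusted p = 0.000148), and Fads2, a desaturase of polyunsaturated fatty acids, 681 ± 72 (SD, n = 4) at ZT16 against 336 ± 30.6, were higher at ZT16 without overlap. Elovl5, the elongase of polyunsaturated fatty acids, went the other way, at 182 ± 17.3 (SD, n = 4) at ZT4 and 85.3 ± 13.1 at ZT16 (1.09, SE 0.15, adjusted p = 2.91e-07). Acly, Acacb, Me1 and Gpam, which supply citrate-derived acetyl-CoA, malonyl-CoA, NADPH and glycerol lipids, were not called. Without ZT16 replicate 3, 2 genes of the list were higher at ZT4. Scd1 was not rebuilt and has no value here.

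Genes of cholesterol synthesis and uptake did not move together. Of 22 tested, 2 were higher at ZT4, 3 were higher at ZT16 and 17 were not called (22.7% called, against 24.2% of all genes). Hmgcs1, the cytosolic HMG-CoA synthase at the entry of the pathway, held 305, 544, 363 and 435 scaled counts at ZT4 and 114, 123, 116 and 179 at ZT16, a difference of 1.62 (SE 0.26, adjusted p = 5.16e-06). Every ZT4 library lay above every ZT16 library. Mvk, mevalonate kinase, was also higher at ZT4 (0.81, SE 0.20, adjusted p = 0.00177), without overlap. Without ZT16 replicate 3, 5 genes in place of 3 were higher at ZT16. The promoter window of Hmgcs1 (chr13:119690101-119690400, plus strand) is shown because its gene led the list at ZT4; it holds a sterol element (TCACNCCAC, the kind of site bound by SREBP, in capitals), found in 1.24% of all windows. Only Hmgcs1 and Mvk of the 5 called genes had a window.
Hmgcs1 (sterol element): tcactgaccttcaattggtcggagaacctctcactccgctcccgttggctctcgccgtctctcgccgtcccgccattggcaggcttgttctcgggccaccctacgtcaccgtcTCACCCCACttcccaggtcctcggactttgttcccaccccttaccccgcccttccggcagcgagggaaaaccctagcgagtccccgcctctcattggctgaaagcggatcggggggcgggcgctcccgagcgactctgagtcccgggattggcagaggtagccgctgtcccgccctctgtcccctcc

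Bile acid genes differed in opposite directions. Cyp7a1, the rate-limiting enzyme that turns cholesterol into bile acids, held 34.2, 55.2, 29.8 and 26.7 scaled counts at ZT4 and 169.5, 304, 237 and 285 at ZT16, a difference of -2.76 (SE 0.38, adjusted p = 2.82e-07) with no overlap. Nr0b2, which encodes SHP, the receptor that represses Cyp7a1, was the reverse, at 15.7, 13.7, 21.9 and 15.5 at ZT4 and 3.49, 2.19, 3.83 and 2.08 at ZT16 (2.19, SE 0.37, adjusted p = 1.14e-05). Hsd3b7, the enzyme after Cyp7a1, was also higher at ZT4, 70.8 ± 5.74 (SD, n = 4) against 19 ± 6.93, but 62.4% of its exon bases lie under genes of the opposite strand and 62.0% under genes of the same strand, so its value may hold their transcripts. Abcb11, the bile salt export pump, was higher at ZT4 (863, 876, 698 and 649 against 439, 449, 370.0 and 452, 0.84, SE 0.10, adjusted p = 7.05e-09), a call that was lost on the values as deposited (adjusted p = 0.0561). Of 14 genes 3 were higher at ZT4 and 4 were higher at ZT16. Leaving out ZT4 replicate 4 or ZT16 replicate 2 left 2 of these 4. Slc10a1, the bile salt importer (-0.35, SE 0.11, adjusted p = 0.0184), was not called without any of ZT4 replicate 4 (0.0886), ZT16 replicate 2 (0.0614) or ZT16 replicate 3 (0.0997), adjusted p in brackets. Cyp7b1, of the alternative pathway (-0.35, SE 0.12, adjusted p = 0.0322), was not called without any of ZT4 replicate 1 (0.116), ZT4 replicate 3 (0.0705), ZT4 replicate 4 (0.117), ZT16 replicate 2 (0.111) or ZT16 replicate 4 (0.0964).

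**Figure D3:**
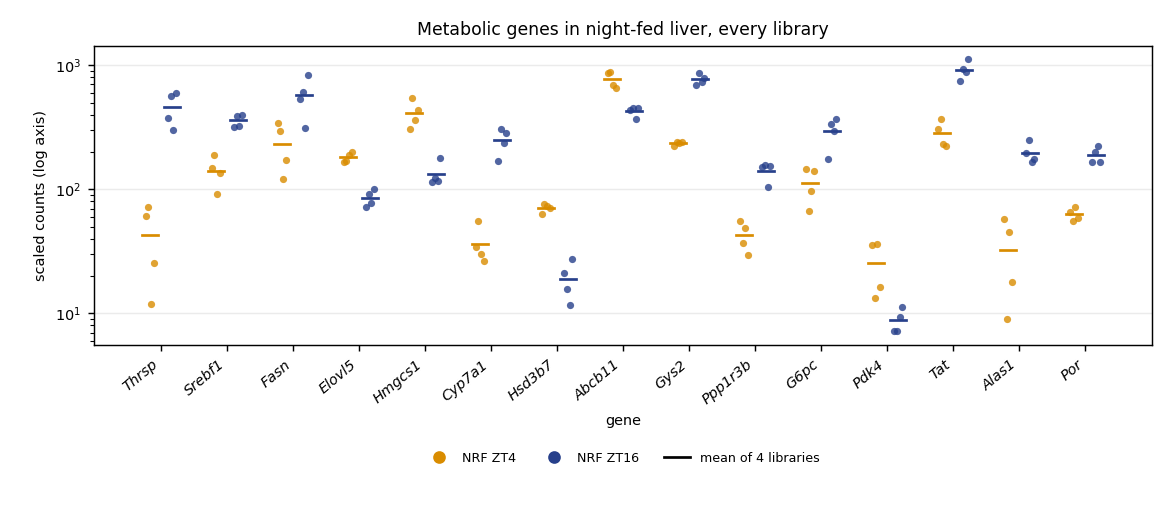
Scaled counts (log axis) of 15 metabolic genes in every night-fed library, with orange points for ZT4, blue points for ZT16 and a bar at the mean of 4 libraries. Thrsp, Srebf1, Cyp7a1, Gys2 and Alas1 are higher at ZT16 and Hmgcs1, Hsd3b7, Elovl5 and Pdk4 are higher at ZT4 without overlap, while Fasn overlaps.

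Genes of glucose uptake and glycolysis that were called were higher at ZT16. Of 14 genes 4 were called, all higher at ZT16 (28.6%, against 10.5% of all genes called in that direction). In both directions 29.9% of protein-coding genes were called. Slc2a2, the hepatocyte glucose transporter, held 324, 369.5, 285 and 289 scaled counts at ZT4 and 462, 567, 374 and 509 at ZT16, just without overlap (-0.58, SE 0.13, adjusted p = 0.000715). Pfkfb1, which makes and removes an allosteric activator of glycolysis (-0.69, SE 0.12, adjusted p = 1.81e-05), and Gpi1, the glucose phosphate isomerase (-0.30, SE 0.11, adjusted p = 0.0373), were also higher at ZT16. The call of Gpi1 was lost without any of ZT4 replicate 3 (0.107), ZT4 replicate 4 (0.0674), ZT16 replicate 2 (0.111), ZT16 replicate 3 (0.0683) or ZT16 replicate 4 (0.0858), adjusted p in brackets. On the values as deposited 10 genes were called in place of 4. Gapdh, Pklr, Khk and the other 7 genes not called had differences between -0.34 and 0.06.

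In the glycogen pathway, Gys2, the liver glycogen synthase, lay at 222, 241, 234 and 241 scaled counts at ZT4 and 693, 864, 737 and 795 at ZT16 (-1.71, SE 0.11, adjusted p = 2.2e-15). Ppp1r3b, the subunit that targets phosphatase to glycogen and so activates Gys2, was higher at ZT16 as well (55.2, 36.7, 48.6 and 29.7 against 151, 155, 105 and 154, -1.73, SE 0.24, adjusted p = 2.94e-07). Branching enzyme Gbe1 (-0.59, SE 0.14, adjusted p = 0.00163) was higher at ZT16 by 1.5-fold. Ppp1r3c, another targeting subunit, was higher at ZT4 (0.64, SE 0.19, adjusted p = 0.00848), a call lost without ZT16 replicate 1 (adjusted p = 0.0928). Phka2, a subunit of phosphorylase kinase, was higher at ZT4 by only 0.23 (adjusted p = 7.65e-05), and on the values as deposited its difference was -0.01 (adjusted p = 0.781). Pygl, the phosphorylase that breaks glycogen down, did not pass (0.01, SE 0.12, adjusted p = 0.971).

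Gluconeogenesis gave 4 of 10 genes higher at ZT16 and 0 higher at ZT4 (limma). G6pc, the glucose-6-phosphatase that releases glucose, held 147, 67.5, 97.4 and 140.1 scaled counts at ZT4 and 176, 333, 297 and 367 at ZT16, without overlap (-1.38, SE 0.34, adjusted p = 0.00205). Its transporter Slc37a4 (-1.07, SE 0.21, adjusted p = 9.84e-05) and Sik1, a kinase that restrains CREB coactivators (-1.54, SE 0.24, adjusted p = 2.91e-06), were also higher at ZT16. Gpt, alanine aminotransferase, was the other gene called (-0.55, SE 0.15, adjusted p = 0.00461). Without ZT16 replicate 3, 1 gene of the list was higher at ZT4. Pck1, which encodes the PEPCK enzyme, overlapped widely, at 317, 115, 280.2 and 199 at ZT4 and 215, 204, 431 and 296 at ZT16, and did not pass (-0.36, SE 0.36, adjusted p = 0.521).

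Fatty acid oxidation and ketogenesis differed little at 4 h into the light. Of 22 genes, 1 was higher at ZT4 and 1 was higher at ZT16 (9.09% called, under the 24.2% of all genes, median -0.02). Pdk4, the kinase that shuts pyruvate dehydrogenase in fasting, held 35.7, 13.2, 36.4 and 16.4 scaled counts at ZT4 and 7.27, 7.2, 9.42 and 11.2 at ZT16 (1.32, SE 0.33, adjusted p = 0.00205). Cpt1a, the gate for entry of fatty acids into mitochondria, was higher at ZT16 (-0.44, SE 0.14, adjusted p = 0.0136), a call lost without ZT4 replicate 2 (adjusted p = 0.115) or ZT16 replicate 3 (adjusted p = 0.0624). Acot1, Cyp4a14, Fgf21 and Angptl4, all targets of PPARα, were highest in ZT4 replicate 3 and were not called. The counts depended on single libraries. By limma 3 genes were higher at ZT4 and 0 at ZT16 without ZT4 replicate 2, 2 were higher at ZT4 without ZT4 replicate 1, 4 were higher at ZT16 without ZT4 replicate 3 and 0 at ZT16 without ZT16 replicate 3. On the values as deposited, 9 genes were higher at ZT16.

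In the fit of all 56 libraries, nitrogen metabolism leaned towards the meal. In the urea cycle 6 of 8 genes were higher at ZT16 (75.0% called), and all 8 had a negative difference. Asl, argininosuccinate lyase, held 276, 319, 259 and 215 scaled counts at ZT4 and 432, 604, 407 and 683 at ZT16 without overlap (-0.97, SE 0.16, adjusted p = 7.1e-06), while the other 5 called genes overlapped between times and differed by -0.33 to -0.50. Without ZT4 replicate 4 or without ZT16 replicate 2, 3 of 8 were called, and without ZT16 replicate 4, 2 of 8. In the fit of the 8 libraries alone only 1 of these genes was called. Cps1, the rate-limiting enzyme and one of the most abundant transcripts, held 14715 ± 3734 (SD, n = 4) at ZT4 and 20601 ± 4050.0 at ZT16 (-0.50, SE 0.19, adjusted p = 0.0439). Its call was lost without any of ZT4 replicate 3 (0.176), ZT4 replicate 4 (0.157), ZT16 replicate 2 (0.13) or ZT16 replicate 4 (0.143), adjusted p in brackets. Among 14 amino acid breakdown genes 7 were higher at ZT16 and 2 were higher at ZT4 (64.3% called). In the fit of the 8 libraries alone 2 were higher at ZT16 and 0 at ZT4. Tat, tyrosine aminotransferase, held 309, 368, 231 and 222 at ZT4 and 747, 928, 884 and 1116 at ZT16, a difference of -1.72 (SE 0.25, adjusted p = 6.55e-07). Mat1a, the enzyme that makes S-adenosylmethionine (-0.63, SE 0.12, adjusted p = 0.000105), and Tdo2, which opens the tryptophan ring (-0.60, SE 0.15, adjusted p = 0.00258), were higher at ZT16 without overlap. Tdo2, Mat1a, Bhmt and Cps1 are among the genes whose counts were too high for the rebuilding to be checked. Hal, which deaminates histidine (0.74, SE 0.16, adjusted p = 0.000318), and Bhmt, the betaine-homocysteine methyltransferase (0.65, SE 0.22, adjusted p = 0.0232), were higher at ZT4, but neither was called on the values as deposited, and Bhmt was lost without ZT4 replicate 1 (adjusted p = 0.0666), ZT4 replicate 2 (adjusted p = 0.116), ZT16 replicate 1 (adjusted p = 0.106) or ZT16 replicate 3 (adjusted p = 0.0543).

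Genes around insulin, growth hormone and glucocorticoid signalling were called in both directions. Irs2, the insulin receptor substrate, held 65.5, 38.6, 47.5 and 42.7 scaled counts at ZT4 and 11.4, 15.5, 28.9 and 17.3 at ZT16 (1.41, SE 0.28, adjusted p = 0.000164). Trib3, an inhibitor of AKT, was higher at ZT4 in every library (5.4, 6.48, 4.09 and 5.9 against 0.979, 0.932, 0.707 and 0.626, 1.83, SE 0.27, adjusted p = 8.91e-07). Igfbp1, a binding protein for insulin-like growth factors that insulin represses, was at 37.4, 22, 42.2 and 43.4 at ZT4 and 2.82, 6.23, 25.2 and 9.92 at ZT16. Its ZT16 replicate 3 lay within the ZT4 range, and the difference of 1.94 (SE 0.62, adjusted p = 0.0173) was lost without ZT16 replicate 1 (adjusted p = 0.095). Igfals, the acid-labile subunit that carries IGF in blood, was likewise within the ZT4 range in ZT16 replicate 3 (17.3, 22.8, 68.4 and 25.6 against 77.9, 65.8, 102 and 81.6 at ZT4, 1.45, SE 0.41, adjusted p = 0.00642). Foxo3, a transcription factor that insulin inactivates (-0.76, SE 0.10, adjusted p = 2.13e-07), and Ghr, the growth hormone receptor (-0.37, SE 0.08, adjusted p = 0.000254), were higher at ZT16, and Igf1 was not called. Foxo1 was called higher at ZT16 (-0.31, SE 0.11, adjusted p = 0.0376) but was not without any of ZT4 replicate 2 (0.0783), ZT4 replicate 3 (0.0744), ZT4 replicate 4 (0.0965), ZT16 replicate 2 (0.0742) or ZT16 replicate 4 (0.145), adjusted p in brackets. Of 13 genes in this list 5 were higher at ZT4 and 3 were higher at ZT16 (61.5% called), Socs2, a feedback inhibitor of growth hormone signalling (1.43, SE 0.35, adjusted p = 0.0017), being the other gene higher at ZT4.

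Of 10 glucocorticoid-responsive genes 3 were higher at ZT4 and 1 was higher at ZT16. Tsc22d3, which encodes GILZ, held 116, 98.1, 95.1 and 76.5 scaled counts at ZT4 and 282, 373, 329 and 345 at ZT16, without overlap (-1.78, SE 0.23, adjusted p = 1.16e-07). The metallothionein Mt2, a metal-binding protein, was the reverse (32.2, 14.5, 19.4 and 30.3 against 3.09, 4.87, 2.7 and 2.47, 2.52, SE 0.50, adjusted p = 0.000158), although 73.5% of its exon bases lie under an antisense gene. Mt1 was higher at ZT4 too (1.47, SE 0.44, adjusted p = 0.0113), with ZT16 replicate 3, at 15.1, inside the ZT4 range. Klf9, a Krüppel-like factor, was higher at ZT4 (0.80, SE 0.15, adjusted p = 5.39e-05). Without ZT4 replicate 1, ZT4 replicate 2 or ZT16 replicate 2, 2 genes in place of 1 were higher at ZT16. Fkbp5 and Zbtb16, further glucocorticoid targets, overlapped between times and were not called, Fkbp5 at 87.1, 131, 49.1 and 25.4 and Zbtb16 at 169, 293, 120.0 and 90.9 at ZT16.

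The heat shock response was higher in the early meal. Of 11 genes 8 were higher at ZT16 and 0 were higher at ZT4 (limma, 72.7% called). The 8 called of these 11 genes were also without overlap between times, where 14.5% of all genes tested were called and without overlap. Hsph1, a cochaperone of HSP70, held 18.9, 6.48, 15.3 and 6.85 scaled counts at ZT4 and 83.9, 99.5, 85.2 and 64.6 at ZT16, a difference of -2.83 (SE 0.31, adjusted p = 2.32e-09). Hspa8, the constitutive HSP70, held 153 ± 34 (SD, n = 4) at ZT4 and 642 ± 139 at ZT16 (-2.06, SE 0.23, adjusted p = 3.79e-09). Inducible Hspa1b was low at ZT4, at 1.1, 0.53, 1.7 and 1.04, and at 11.7, 13.2, 7.53 and 3.85 at ZT16 (-2.18, SE 0.38, adjusted p = 2.39e-05), and its near-identical copy Hspa1a was also higher at ZT16 (-1.08, SE 0.21, adjusted p = 0.000156), so counts of the pair may be split between them. Dnaja1 (-1.74, SE 0.15, adjusted p = 2.2e-12) and Dnajb1 (-1.15, SE 0.18, adjusted p = 3.13e-06), the J-proteins that feed clients to HSP70, were higher at ZT16, as were Hsp90ab1 (-0.95, SE 0.11, adjusted p = 5.27e-09) and the mitochondrial chaperonin Hspd1 (-0.56, SE 0.09, adjusted p = 1.19e-05). Hsp90aa1, the inducible HSP90, was at 58.2, 40.3, 55.2 and 31.6 at ZT4 and 276, 199, 7.55 and 164 at ZT16. Its value in ZT16 replicate 3 lay under every other library, the difference of -1.03 (SE 0.49, adjusted p = 0.125) did not pass, and without that library it was -2.18 (adjusted p = 1.63e-08). Hsf1, which encodes the transcription factor of this response, was not called (-0.19, SE 0.14, adjusted p = 0.356).

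A heat shock element (GAANNTTC, the core of the site bound by HSF1) was found in promoter windows of 5 of the 6 called heat shock genes that had one, Dnaja1, Hspa1a, Hspa1b, Hspd1 and Hsph1. These 6 genes had 11 windows, of which 6 held the element, against 7.86% of all windows. The windows of Hsph1 (chr5:149636287-149636586, minus strand) and Hspa1b (chr17:34959189-34959488, minus strand) are shown for the genes with the highest differences, with the element in capitals.
Hsph1 (heat shock element): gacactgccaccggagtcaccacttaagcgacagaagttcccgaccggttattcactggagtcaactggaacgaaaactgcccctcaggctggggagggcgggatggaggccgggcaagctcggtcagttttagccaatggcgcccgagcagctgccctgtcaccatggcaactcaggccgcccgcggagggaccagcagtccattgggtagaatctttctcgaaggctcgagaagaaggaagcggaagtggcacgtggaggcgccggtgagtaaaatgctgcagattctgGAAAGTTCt
Hspa1b (heat shock element): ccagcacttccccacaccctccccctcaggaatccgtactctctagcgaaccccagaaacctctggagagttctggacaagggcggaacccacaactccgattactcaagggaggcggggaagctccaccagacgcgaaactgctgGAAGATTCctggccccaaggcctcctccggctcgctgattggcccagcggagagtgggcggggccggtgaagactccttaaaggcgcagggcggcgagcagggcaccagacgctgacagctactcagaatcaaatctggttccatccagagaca

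Chaperones of the endoplasmic reticulum (ER) followed the same direction. All 19 genes of this list had a negative difference and 15 were called higher at ZT16 (78.9%, median -0.61). Creld2, an ER protein induced by unfolded proteins, held 14.3, 8.78, 14 and 12.3 scaled counts at ZT4 and 36, 54, 93.9 and 37.3 at ZT16 (-1.99, SE 0.33, adjusted p = 1.19e-05). Dnajb9, a cochaperone of BiP (-1.29, SE 0.22, adjusted p = 1.77e-05), and Manf, a secreted ER stress protein (37.1, 34.9, 33.9 and 37.7 against 75, 78.5, 113 and 78.9, -1.22, SE 0.23, adjusted p = 6.38e-05), were higher at ZT16 in every library. Hspa5, which encodes BiP, was at 111, 76.9, 99 and 88.1 at ZT4 and 109, 123, 289.6 and 116 at ZT16, with ZT16 replicate 3 the highest and the other libraries of both times between 76.9 and 123 (-0.64, SE 0.24, adjusted p = 0.0493). ZT16 replicate 3 was the highest ZT16 library for Creld2, Dnajb9, Manf, Hyou1, Hspa5, Hsp90b1, Pdia3, Pdia4, Dnajb11 and Syvn1. Without it 9 genes of the list were called, and without ZT4 replicate 2 also 9. Sel1l, of the ER degradation complex (-0.89, SE 0.13, adjusted p = 1.24e-06), and Hyou1, an ER chaperone (-0.97, SE 0.20, adjusted p = 0.000319), did not overlap between times.

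Ribosome biogenesis gave 9 of 19 genes higher at ZT16 and 0 higher at ZT4 (limma, 47.4% called). Among them were Polr1a, the main subunit of RNA polymerase I (26.5 ± 5.57 against 42.5 ± 3.05, SD, n = 4, -0.68, SE 0.10, adjusted p = 2.67e-06), Nop56 (-0.62, SE 0.11, adjusted p = 1.98e-05) and Wdr12 (-0.62, SE 0.08, adjusted p = 2.28e-07), factors of the small nucleolar and large subunit machinery. Without ZT16 replicate 4, 1 gene was higher at ZT4. Nucleolar proteins Ncl and Npm1 and the transcription factor Myc were not called. Of the cold-inducible RNA-binding proteins, which warming represses, Cirbp held 2.31, 3.81, 2.64 and 4.74 at ZT4 and 0.64, 0.706, 0.846 and 0.847 at ZT16 (1.28, SE 0.19, adjusted p = 1.5e-06), and Rbm3 was not called (-0.12, SE 0.14, adjusted p = 0.606). In autophagy, Ulk1, the kinase that starts the process (0.70, SE 0.13, adjusted p = 6.53e-05), and Sqstm1, the cargo receptor (216, 217, 234 and 212 against 124, 138, 142 and 154, 0.66, SE 0.08, adjusted p = 1.08e-08), were higher at ZT4 without overlap. Of the 11 genes Becn1 (-0.23, SE 0.07, adjusted p = 0.0107) and Bnip3 (-0.69, SE 0.25, adjusted p = 0.0406) were higher at ZT16. In all 36.4% of the autophagy list was called, against 29.9% of protein-coding genes. Becn1 was not called without ZT4 replicate 1 (adjusted p = 0.0603), nor was Bnip3 without any of ZT4 replicate 1 (0.0648), ZT4 replicate 2 (0.126), ZT4 replicate 4 (0.103), ZT16 replicate 1 (0.151) or ZT16 replicate 4 (0.0691).

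In drug and heme metabolism all 12 genes had a negative difference, 6 of them called (median -0.47). Alas1, the rate-limiting enzyme of heme synthesis, held 57.1, 9.09, 45.6 and 18 scaled counts at ZT4 and 196, 251, 167 and 175 at ZT16. The ZT4 libraries spread widely and still lay under each ZT16 library (-2.87, SE 0.37, adjusted p = 6.66e-08). Por, the reductase that supplies electrons to cytochrome P450 enzymes, was at 65.1, 55.5, 72.5 and 59.1 at ZT4 and 167, 199, 225 and 165 at ZT16 (-1.56, SE 0.11, adjusted p = 4.39e-15). Cyp2a5, a coumarin hydroxylase, was at 326, 462, 139 and 164 at ZT4 and 1147, 1573, 1136 and 1364 at ZT16 (-2.41, SE 0.26, adjusted p = 1.43e-09), and Cyp2a21-ps, a pseudogene of the same family with which it may share counts, was also higher at ZT16 (-2.79, SE 0.45, adjusted p = 5.51e-06). Cyp1a2 (-0.78, SE 0.18, adjusted p = 0.00098) and Cyp2e1 (-0.61, SE 0.14, adjusted p = 0.000644) were higher at ZT16, and Cyp3a11 (-0.32, SE 0.13, adjusted p = 0.0591) was not called.

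Other genes named for the size of their difference, from called genes without overlap between times, lay outside these lists. Depp1, a FOXO-induced regulator of autophagy, held 45.6, 58.6, 59.8 and 35 scaled counts at ZT4 and 2.97, 2.11, 7.02 and 3.57 at ZT16 (3.43, SE 0.48, adjusted p = 4.36e-07). Ndrg1, a stress-responsive gene (79.4 ± 20.4 against 11.2 ± 2.12, SD, n = 4, 2.7, SE 0.19, adjusted p = 7.78e-15), and Gm2895, the noncoding gene that starts on the opposite strand at its 5′ end (2.53, SE 0.20, adjusted p = 7.8e-13), were higher at ZT4 together. Egr1, an immediate early transcription factor (2.76, SE 0.70, adjusted p = 0.00257), Rfx4, a transcription factor (2.35, SE 0.18, adjusted p = 1.24e-13), Loxl4, an extracellular lysyl oxidase (2.32, SE 0.18, adjusted p = 1.14e-13), and Rgs16, a brake on G protein signalling (2.18, SE 0.48, adjusted p = 0.000552), were all higher at ZT4. The call of Rgs16 was lost on the values as deposited (adjusted p = 0.0614). At ZT16 the leading genes were Tsku, which encodes the secreted protein Tsukushi, Usp2, a ubiquitin protease, and Noct, which encodes nocturnin. Tsku held 40.9, 4.39, 10.5 and 4.39 at ZT4 and 217, 237, 186 and 222 at ZT16 (-4.31, SE 0.44, adjusted p = 3.9e-10), and ZT4 replicate 1 stood above the other ZT4 libraries. Usp2 was at 0.642, 0.173, 0.62 and 0.19 and 18.8, 24.6, 17.7 and 22.6 (-3.97, SE 0.26, adjusted p = 1.17e-15), and Noct at 1.56, 0.691, 0.977 and 1.46 and 40.7, 15.4, 35.4 and 33.2 (-3.83, SE 0.54, adjusted p = 4.6e-07).

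Genes for the RNA of the signal recognition particle cannot be read with the same confidence. The models Gm47305 and Gm47287 lie wholly inside Rn7s2 and Rn7s1, genes for that RNA, on the same strand, so their counts cannot be separated from those genes. Gm47305 was at 770.3, 915, 0.00329 and 913 scaled counts at ZT16 and at 0.00195 to 0.00225 at ZT4, and ZT16 replicate 3 lay near the ZT4 level. Rn7s2 itself was higher at ZT4 (1933, 1054, 2634 and 2129 against 299, 455, 502 and 374, 2.2, SE 0.57, adjusted p = 0.00341). No direction is drawn for these genes.

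NRF was set beside DRF at the same times, where the light phase is the same and the feeding state is opposite. Clock genes also changed sign under DRF, as given below, so food, fasting time and clock phase cannot be told apart. The DRF libraries are separate from those of NRF, and the test is the interaction, the NRF difference minus the DRF difference. Under DRF 5546 genes were called (22.1%), 2944 (11.7%) higher at ZT4 and 2602 (10.3%) higher at ZT16, and the difference itself differed between regimens in 5472 (21.8%). Of the 6091 genes called under NRF, 55.4% had a called interaction, 1443 (23.7%, or 5.74% of all genes tested) were called with the opposite sign under DRF and 815 (13.4%, or 3.24%) with the same sign. The other 3833 (15.2% of all tested) were not called under DRF, which does not show that they did not differ there. The balance turned on the scale: on the values as deposited 1071 genes were called with opposite sign and 1198 with the same sign, while median-of-ratios scaling gave 1437 and 870. Opposite calls on scaled counts were 697 for genes higher at ZT4 under NRF and 746 for genes higher at ZT16.

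**Figure D4:**
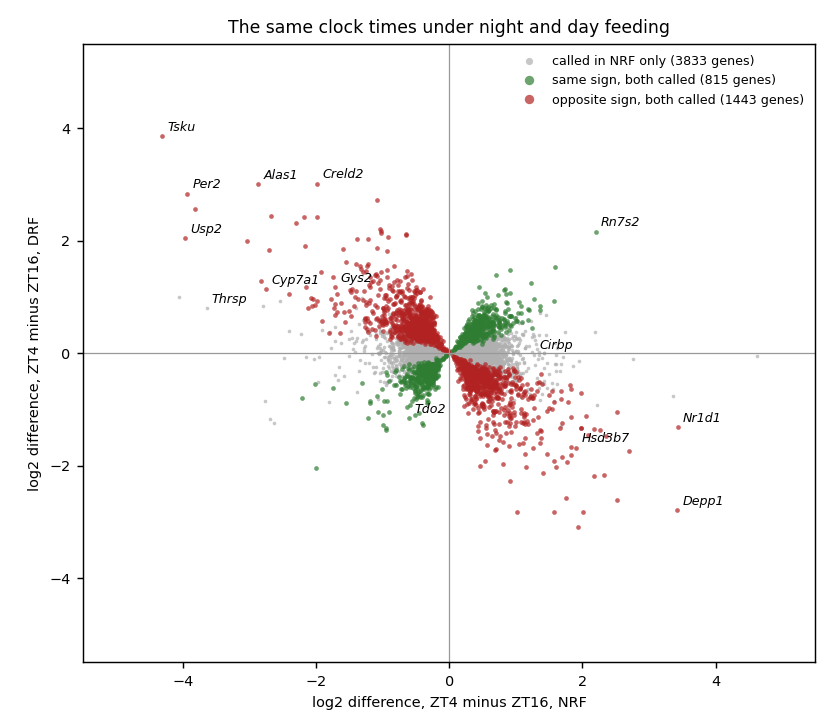
Log2 difference between ZT4 and ZT16 under NRF (horizontal axis) and under DRF (vertical axis) for every gene called under NRF, with red points for genes called with opposite sign under DRF (1443), green points for the same sign (815) and grey points for genes not called under DRF (3833); 2 genes lie outside the axes of ±5.5. Per2, Tsku, Usp2 and Alas1 sit at the upper left, higher at ZT16 under NRF and at ZT4 under DRF, and Nr1d1 and Depp1 sit at the lower right.

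Clock genes were among those that changed sign. Per2 held 99, 84.7, 91.2 and 94.2 scaled counts at ZT4 and 13.6, 11.6, 11.9 and 11.2 at ZT16 under DRF, the reverse of NRF, and the interaction was -6.77 (SE 0.37, adjusted p = 1.36e-18). Nr1d1 was at 7.63, 11, 6.18 and 6.81 at ZT4 and 11.8, 19.7, 28.1 and 27.9 at ZT16 under DRF. Its DRF difference of -1.31 (SE 0.31, adjusted p = 0.0013) was of opposite sign to that under NRF and smaller in size (interaction 4.75, SE 0.44, adjusted p = 1.18e-11). Of the 10 genes of the negative arm 5 were called in both regimens with opposite sign and 0 with the same sign (limma). In the positive arm 3 of 5 genes were called with opposite sign, as were 3 of 4 PAR bZIP and NFIL3 genes, against 5.74% of all genes tested. Per1, called under NRF, was not called under DRF (0.34, SE 0.27, adjusted p = 0.432), and its interaction was called (-2.58, SE 0.38, adjusted p = 8.71e-07).

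Some metabolic and stress genes reversed and others were not called under DRF. Tsku held 276, 266, 272 and 313 scaled counts at ZT4 and 35.9, 15.2, 16.9 and 12.2 at ZT16 under DRF, and had the largest interaction among the named genes called in both (-8.17, SE 0.62, adjusted p = 5.11e-14). Noct (-6.39, SE 0.76, adjusted p = 7.6e-09), Depp1 (6.22, SE 0.68, adjusted p = 9.57e-10) and Usp2 (-6.01, SE 0.36, adjusted p = 3.01e-17) followed. Alas1 (3.0, SE 0.37, adjusted p = 2.63e-08 under DRF), Srebf1 (2.04, SE 0.20, adjusted p = 1.54e-10), Gys2 (1.17, SE 0.11, adjusted p = 1.06e-10) and Creld2 (3.01, SE 0.33, adjusted p = 2.72e-09) were each higher in the fed phase of both regimens. The heat shock list reversed in 7 of 11 genes, ER chaperones in 11 of 19 and ribosome biogenesis in 9 of 19, and 1 ER gene kept its sign. Other lists reversed too, with 5 of 15 genes of fatty acid synthesis, 3 of 10 of glycogen and 3 of 14 of bile acids. Among all genes tested 5.74% were called in both regimens with opposite sign. In contrast, Hmgcs1 (-0.55, SE 0.26, adjusted p = 0.13), G6pc (-0.70, SE 0.34, adjusted p = 0.152) and Tat (-0.39, SE 0.25, adjusted p = 0.29) were not called under DRF. G6pc had no called interaction (-0.68, SE 0.48, adjusted p = 0.366), so its difference is not shown to differ between regimens.

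Nitrogen metabolism was mixed between regimens. In the urea cycle 3 of 8 genes were called with the same sign and 0 with the opposite sign (limma), against 3.24% and 5.74% of all genes tested. Asl, whose NRF difference led that list, was not called under DRF (-0.07, SE 0.16, adjusted p = 0.845) and its interaction was called (-0.90, SE 0.22, adjusted p = 0.002). Among 14 amino acid breakdown genes 2 were called with the same sign and 2 with the opposite sign, the latter being Hal (-0.63, SE 0.16, adjusted p = 0.00215 under DRF) and Bhmt (-0.60, SE 0.22, adjusted p = 0.0384 under DRF). Tdo2 held 579, 746, 552 and 628 scaled counts at ZT4 and 1675, 1371, 1200.1 and 1353 at ZT16 under DRF, higher at ZT16 as under NRF (-1.16, SE 0.15, adjusted p = 1.12e-07), and Cps1 did likewise (-0.82, SE 0.19, adjusted p = 0.00087). Pfkfb1 (-0.44, SE 0.12, adjusted p = 0.00456) and Foxo1 (-0.36, SE 0.11, adjusted p = 0.0159) were also higher at ZT16 in both. Osgin1, a gene induced by oxidative stress, was higher at ZT4 in both (39.6, 51.8, 183 and 163 at ZT4 and 25.4, 25.1, 35.9 and 30.4 at ZT16 under NRF, 1.58, SE 0.53, adjusted p = 0.0235, and 1.52, SE 0.53, adjusted p = 0.0319 under DRF), but its NRF call was lost without any of ZT4 replicate 3 (adjusted p = 0.114), ZT4 replicate 4 (adjusted p = 0.107), ZT16 replicate 1 (adjusted p = 0.0523) or ZT16 replicate 2 (adjusted p = 0.0536). Cirbp, higher at ZT4 under NRF, was at 1.17, 1.5, 1.12 and 0.704 at ZT4 and 0.867, 0.944, 1.59 and 1.25 at ZT16 under DRF (-0.03, SE 0.19, adjusted p = 0.967), and the 2 differences were unequal (interaction 1.31, SE 0.27, adjusted p = 0.000224).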

How the data were processed

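Liver RNA of 56 samples, 4 in each of 14 groups (2 feeding regimens at 7 times), was sequenced by the authors after ribosomal RNA depletion with a strand-specific, paired-end protocol, and the 8 night-fed libraries at ZT4 and ZT16 are described here. Groups and replicate numbers came from the labels. The submitters' processing notes name CASAVA 1.8, featureCounts 1.5.0-p3, GRCm38.p6 and mm10. Whether strand was used in counting is not given in the sources used here. The labels name polyA RNA as the molecule while the protocol describes ribosomal RNA depletion.

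The deposited gene table, called TPM, holds values treated here as a score. For most genes each value times exon length (GENCODE M21) is a logarithm of 1 plus a whole number times a library factor. It is not a linear TPM as the tests had assumed. Inverting this logarithm gave scaled counts for 25143 genes, and 272 genes could not be rebuilt. For 1839 genes, and 149 more at a wider tolerance, the length was searched as one that made the counts whole. Wholeness is therefore no check of them. Sik1, Klf9, Igfals, Ppp1r3c and Cpt1a are among them. The check used genes at their annotated length that had not served to fit the library factors. Of their recovered counts up to 100000, 99.8% to 100% were whole within 0.05 (10% by chance). Of those from 100000 to 300000, 99.8% were whole within 0.2 (40% by chance). Higher counts were not checked, and 144 genes had counts too high to judge, among them Cps1, Mat1a, Tdo2, Gbe1, Bhmt, Cyp1a2, Cyp2e1, Cyp3a11 and Alb. No count model was used, and the transcript and circular RNA tables were not used. No value column was left without a sample.

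Differences were tested with limma 3.58.1 (R 4.3.3) on log2(scaled count + 1) in all 56 libraries, which share 1 estimate of the spread (42 residual degrees of freedom), with Benjamini-Hochberg adjustment over all 25143 genes and a threshold of 0.05. A filter on a mean deposited value of 0.1 removed no gene. Tables and plots were made with Python 3.11.15, numpy 2.4.6, pandas 2.3.3 and matplotlib 3.10.9. The test was checked on simulated data. Genes were named by rule: the 12 with the largest log2 difference in each direction among called Ensembl genes without overlap between times and with a mean of at least 1 scaled count. For each list the rule took up to 4 called genes of the commoner direction, each called gene of the other direction and the highest gene not called, and for the regimens the 5 most opposite and the 5 strongest of the same sign. Some genes that the rule named are not reported here. Other list members were named after their values were seen. The genes, lists and tests were chosen with earlier results of these data known. Alternatives were the values as deposited, median-of-ratios scaling, removal of the exon length trend, other pseudocounts and filters, no variance trend, a replicate block, fits of the 8 or the 28 NRF libraries alone and leaving out each library. Scaled counts equal 1 per 303.9 to 593.2 recovered counts in the 8 libraries, and as these exceed the stated depth no counting interval is given.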

Additional observations from a re-analysis of the deposited data

Results flagged for a closer look

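In 16 of 268 groups of 4 libraries tested, 1 library stood far from the other 3 (Dixon's test at the 95% level), where chance gives about 1 in 20. NRF ZT16 replicate 3 was that library in 9 of the 16. At ZT16 it held 0.00329 scaled counts of Gm47305, 33.1 of Slc37a4, 105 of Ppp1r3b, 370.0 of Abcb11 and 15.1 of Mt1. It also held 68.4 of Igfals, 113 of Manf, 7.68 of 0610040F04Rik and 283 of AY036118. Other such values at ZT16 were 179 for Hmgcs1 in replicate 4 and 1052 for Tdo2 in replicate 2. At ZT4 they were 40.9 for Tsku in replicate 1, 1.23 for Per3 and 10.7 for Tef in replicate 3, and 5.64 for Cyp2a21-ps and 459.8 for Ghr in replicate 2. The cause of these values was not tested.

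The difference between ZT4 and ZT16 itself differed between night and day feeding in 5472 genes (limma interaction, adjusted p under 0.05). Among the named genes the interaction on the log2 scale was -8.17 for Tsku, -6.77 for Per2, -6.39 for Noct, 6.22 for Depp1 and -6.01 for Usp2.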

How the results depend on the processing

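On the 8 libraries alone, 2185 genes were called, 1137 higher at ZT4 and 1048 higher at ZT16, with fewer samples to estimate the spread. Genes higher at ZT16 then fell from 15 to 8 among ER chaperones and from 9 to 4 in ribosome biogenesis. They fell from 7 to 4 in fatty acid synthesis and from 6 to 3 in drug and heme metabolism, and stayed at 8 in the heat shock list. On the values as deposited, 2170 genes were higher at ZT4 and 4245 were higher at ZT16, and Phka2 changed sign to -0.011 (adjusted p = 0.781); the cause was not tested. Leaving out each library in turn gave 4760 (without NRF ZT4 replicate 4) to 6313 (without NRF ZT4 replicate 1) genes, 2706 to 3716 of them higher at ZT4 and 2054 to 2723 higher at ZT16. It gave 5040 to 5490 called interactions, 1277 to 1409 genes called in both regimens with opposite sign and 582 to 1035 with the same sign. With the replicate number as a block 6116 genes and 5485 interactions were called. Same-numbered libraries correlated in their deviations at 0.239, 0.016, 0.014 and -0.024, highest for replicate 1. These values do not settle whether the numbers pair the libraries, and under the block Cps1 was not called. Of the 114 named genes that were called, 75 were called under each of the 19 alternatives run per gene, and 23 were lost under at least 1 alternative other than the fit of the 8 libraries. Values as deposited also raised the genes higher at ZT16 from 6 to 11 in drug and heme metabolism, from 4 to 8 among bile acid genes and from 1 to 4 in the glucocorticoid list. The depth behind the values is unknown, so what it limits could not be computed.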

Other observations

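Most calls of antisense and lincRNA genes were higher at ZT4 on scaled counts. Of 1647 antisense genes 386 were higher at ZT4 and 34 were higher at ZT16, and of 1076 lincRNA genes 171 were higher at ZT4 and 41 at ZT16. Of 15052 protein-coding genes 2329 were higher at ZT4 and 2179 at ZT16. The larger count of protein-coding genes moved to ZT16 under other scalings, with 1244 at ZT4 against 3722 at ZT16 on the values as deposited, 2016 against 2545 with median-of-ratios scaling and 2326 against 2380 with the length trend removed. For antisense genes it stayed at ZT4, with 293 antisense genes higher at ZT4 and 54 at ZT16 on the values as deposited, 352 against 37 with median-of-ratios scaling and 294 against 60 with the length trend removed. Without NRF ZT4 replicate 3, 241 antisense genes were higher at ZT4, and without NRF ZT16 replicate 1, 22 were higher at ZT16. On the 8 libraries alone 98 antisense genes were higher at ZT4 and 15 at ZT16. These counts were compared after the values were seen. Whether strand was used in counting is not given in the sources used here, so transcripts of an antisense gene and of its partner on the other strand may not be separated.

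The genes in this paragraph were also chosen after their values were seen. Gm48342, antisense to Hmgcs1, held 4.01, 7.97, 9.1 and 8.64 scaled counts at ZT4 and 1.46, 1.78, 1.08 and 1.92 at ZT16 (limma, 1.68, SE 0.24, adjusted p = 5.31e-07). Its partner Hmgcs1 was higher at ZT4 as well. Among genes higher at ZT16, 0610040F04Rik, antisense to Bhlhe40, held 3.57, 3.0, 3.28 and 5.25 at ZT4 and 12.7, 12.7, 7.68 and 12.7 at ZT16 (limma, -1.38, SE 0.24, adjusted p = 2.39e-05). Bhlhe40 was higher at ZT16 too.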
